A study of Mus musculus with 24 samples.

Results

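PDGFRα-SCA1+ cells, a population sorted from the mouse liver beside the mesenchymal cells of the portal tract, were compared with the ductal cells (DCs) of the same livers. The comparison rests on 6 of the 24 samples of the series, namely the PDGFRα-SCA1+ and the DC samples of mice A, E and F, with n = 3 in each population. The samples were taken by their labels and no measured value was used to choose them. PDGFRα-SCA1+ cells carried the RNA of endothelium at high levels and lacked most of the RNA of the biliary epithelium. The trace of ductal RNA that they held differed by up to 136-fold between the 3 mice, at the median of 68 genes. These genes were chosen as high in DCs and low in PDGFRα+ cells. The lowest of the medians, in mouse A, rested on values of few reads and is limited by depth.

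The series profiled RNA of cells freshly sorted from healthy livers and of cells grown in culture, and only the former are used here. All 3 mice were 12 weeks old, untreated and heterozygous for the reporter allele B6.129S4-Pdgfratm11(EGFP)Sor/J on a C57BL/6 background, in which the Pdgfra locus drives a nuclear green fluorescent protein (H2BGFP). Mice A and E were male and mouse F was female. Livers were digested with enzymes to enrich fragments of the biliary tree. DCs were then sorted as positive for EpCAM, and PDGFRα-SCA1+ cells as positive for SCA1 and negative for the reporter, and both gates left out cells with CD45, CD11b or CD31 on their surface. The sorting methods take SCA1-positive stroma from cells negative for EpCAM as well. The labels class PDGFRα-SCA1+ cells as mesenchymal, and the sources used here do not name a positive endothelial marker in their gate. The paper itself describes this fraction as endothelial, from its high levels of genes such as Kdr. PDGFRα+SCA1+ and PDGFRα+SCA1- mesenchymal cells of the same mice, 6 samples, entered the fit that estimates the spread and serve as a background where their values are given.

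Endothelial cells line blood vessels. In the liver they comprise the fenestrated, scavenging endothelium of the sinusoids and the continuous endothelium of the portal vessels and central veins, and they signal through VEGF, angiopoietin and Notch receptors and secrete factors that act on neighbouring epithelium. Ductal cells, or cholangiocytes, form the polarised tube that carries and modifies bile. They are joined by tight junctions and desmosomes, carry a simple-epithelial keratin network and depend on SOX9 in development. Endothelial genes are commonly read by ETS family factors, whose binding sites share a core around GGAA, and epithelial genes by grainyhead factors.

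Promoters that show these letters are printed first, since genes of the ETS and grainyhead families differed between the 2 populations. Promoter sequences, from 250 bases before to 50 bases after the first start listed for a gene, were taken from RefSeq on GRCm38.p6, written 5′ to 3′ along the gene. AGGAAG (the ETS core) and AACCNGGTT (grainyhead) were searched on both strands, and matches of the ETS core are in capitals (CTTCCT on the opposite strand). No 2 matches overlap in the promoters shown, and none of them holds the grainyhead motif. Tie1 and Robo4, which encode receptors of endothelium, hold the ETS core, and so does Pkhd1, which encodes fibrocystin of the ductal cilium and is shown since its RNA went the other way. Tie1 is read at chr4:118489800-118490099 on the minus strand, Robo4 at chr9:37401722-37402021 on the plus strand and Pkhd1 at chr1:20618008-20618307 on the minus strand.
Tie1: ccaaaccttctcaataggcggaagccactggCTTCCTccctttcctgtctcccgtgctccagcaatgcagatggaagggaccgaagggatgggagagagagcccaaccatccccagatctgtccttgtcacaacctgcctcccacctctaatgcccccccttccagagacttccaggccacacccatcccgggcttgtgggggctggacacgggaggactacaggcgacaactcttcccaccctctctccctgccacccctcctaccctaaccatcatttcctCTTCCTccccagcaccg
Robo4: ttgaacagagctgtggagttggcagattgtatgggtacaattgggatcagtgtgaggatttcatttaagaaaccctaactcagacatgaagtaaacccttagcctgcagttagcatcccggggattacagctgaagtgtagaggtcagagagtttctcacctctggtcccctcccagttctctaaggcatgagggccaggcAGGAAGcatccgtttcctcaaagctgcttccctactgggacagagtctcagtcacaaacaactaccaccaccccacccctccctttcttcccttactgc
Pkhd1: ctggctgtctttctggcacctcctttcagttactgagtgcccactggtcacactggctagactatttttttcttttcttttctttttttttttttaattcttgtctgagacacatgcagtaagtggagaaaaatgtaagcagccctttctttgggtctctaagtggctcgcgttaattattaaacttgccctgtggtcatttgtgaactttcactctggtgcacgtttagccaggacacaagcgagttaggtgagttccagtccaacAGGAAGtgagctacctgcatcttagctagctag

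The ETS core occurred in 35.1% of all 27025 promoters, so that a match in a single promoter is common. It was found in 6 of the 9 promoters matched for the pan-endothelial list (Tie1, Flt1, Eng, Emcn, Egfl7 and Robo4) and in 6 of the 15 matched for the ductal list (Krt7, Krt8, Spp1, Cldn7, Cftr and Pkhd1). The other lists searched lay below the share of all promoters. They were endothelial transcription factors (4 of 14, 28.6%), ductal transcription factors (4 of 13, 30.8%) and epithelial junctions (4 of 15, 26.7%). Among genes with a promoter that were tested, 36.2% of the 1376 higher in PDGFRα-SCA1+ cells and 31.5% of the 1288 lower held the ETS core, beside 33.1% of the 11024 tested. The grainyhead motif was held by 0.291% of the promoters of higher genes and 0.543% of those of lower genes, beside 0.299% of those tested, which were 4, 7 and 33 promoters. None of the promoters matched for the lists named above held the grainyhead motif. These shares are descriptions, and the match of a motif in Tie1, Robo4 or Pkhd1 does not mark a bound site.

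Expression is given as the value the authors deposited under the name TPM, a read count scaled per gene length and per library, and values follow the order of mice A, E and F throughout. Genes were compared as log2(value + 1) with limma, two-sided, with p-values adjusted after Benjamini and Hochberg over all 17028 genes tested and a threshold of 0.05. Genes whose adjusted p passed it are called higher or lower in PDGFRα-SCA1+ cells, and log2 fold changes are PDGFRα-SCA1+ over DCs with their standard error (SE). Of these genes 22.8% differed, with 11.5% higher (1952 genes) and 11.3% lower (1923 genes), and the median log2 fold change of the genes tested was -0.04. Counts within a list of genes are to be read against these shares. For lists described below as having no gene higher or none lower, limma found none in that direction at an unadjusted p under 0.05 either, except where a count is given. Depth was 19.6 M to 25.7 M reads over the 12 samples of the fit, and samples of the same population correlated across genes at 0.831 to 0.840 (Spearman) in PDGFRα-SCA1+ cells and 0.92 to 0.928 in DCs. Since RNA of whole sorted populations was read, fewer cells of a type and less RNA per cell cannot be told apart.

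Kdr and Krt19, the markers by which the populations are known, separated them fully. Kdr (chromosome 5 of GRCm38 from 75932827 to 75978458), which encodes the VEGF receptor VEGFR2, measured 443, 423 and 332 in PDGFRα-SCA1+ cells and 2.25, 0.264 and 2.09 in DCs. The lowest PDGFRα-SCA1+ sample lay far above the highest DC sample (log2 fold change 7.41, SE 0.83, adjusted p 3.7e-05, limma). Krt19, the keratin by which ducts are stained, measured 56.1, 58.1 and 25.8 in PDGFRα-SCA1+ cells and 2249.8, 2099.6 and 2639 in DCs. The change was -5.69 on the log2 scale (SE 0.94, adjusted p 7.7e-04, limma). Krt19 was nevertheless above its level in PDGFRα+ cells, which ran from 0.0919 to 15.4, in each of the 3 PDGFRα-SCA1+ samples.

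The genes of the sorting antigens describe the gates and are no finding. Ly6a, which encodes SCA1, measured 4969.5, 3018 and 4234 in PDGFRα-SCA1+ cells and 71.3, 155 and 82.4 in DCs. Pdgfra was at 0.0305, 0.0276 and 0.0402 in PDGFRα-SCA1+ cells, as low as in DCs, against 52.9 to 103 in PDGFRα+ cells. Epcam, the gate antigen of DCs that the sorting methods exclude from the stroma, stood at 3091, 3040.0 and 2966 in DCs and at 0.61, 148 and 30.8 in PDGFRα-SCA1+ cells. Pecam1, which encodes the CD31 that the gate was set to leave out, was high in PDGFRα-SCA1+ cells, at 726, 732 and 929, against 0.221, 3.07 and 0.641 in DCs. Ptprc, which encodes CD45, was at 3.10, 0.224 and 75.2 in PDGFRα-SCA1+ cells, so that only the sample of mouse F had more than a few units, and Itgam, which encodes CD11b, was at or under 0.2 in all 6 samples.

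**Figure D1:**
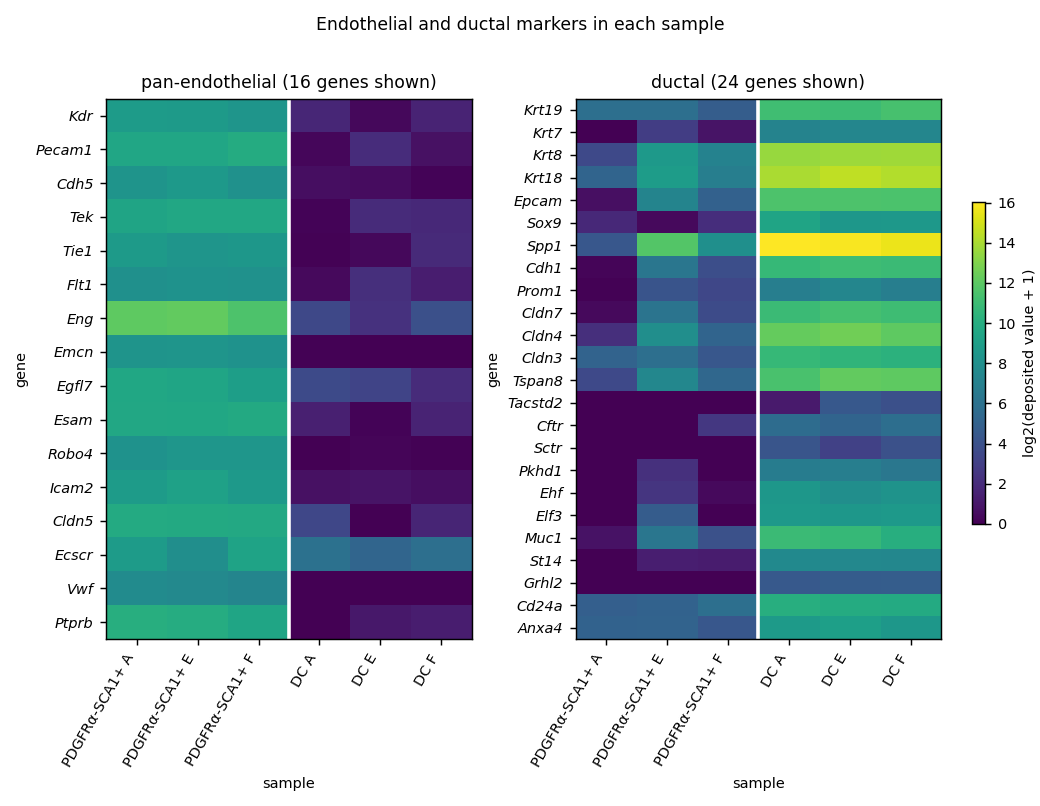
Heat maps of log2(deposited value + 1) for the 16 pan-endothelial genes and 24 of the 25 ductal genes (rows) in the PDGFRα-SCA1+ and DC samples of mice A, E and F (columns), with 1 colour scale for both. The endothelial genes are bright in the PDGFRα-SCA1+ columns and the ductal genes in the DC columns, and the PDGFRα-SCA1+ column of mouse E is brighter in ductal genes such as Spp1 (3493) than that of mouse A (19.8).

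All 16 genes of the pan-endothelial list were tested and all 16 were higher in PDGFRα-SCA1+ cells, with a median log2 fold change of 8.11. The list holds the gate antigen gene Pecam1, and without it 15 of 15 were higher (median 8.04). One of them, Ecscr, had the smallest change of the list and was not past the threshold when any one of the 6 samples compared or the PDGFRα+SCA1+ sample of mouse E was left out (adjusted p 0.0583 to 0.138, limma), and the other 15 were past it each time. Cdh5, which encodes the VE-cadherin of endothelial adherens junctions, measured 320.2, 392 and 281 in PDGFRα-SCA1+ cells and 0.480, 0.473 and 0.0987 in DCs. Cdh5 changed by 7.94 on the log2 scale (SE 0.50, adjusted p 6.5e-07, limma). Eng, which encodes the TGF-β co-receptor endoglin, stood at 4270.3, 4784 and 3087 in PDGFRα-SCA1+ cells and at 10.3, 3.90 and 14.4 in DCs. It was lower in PDGFRα+ cells than in PDGFRα-SCA1+ cells, at 538 to 1223, but not absent from them. Emcn, a sialomucin of venous and capillary endothelium, measured 319, 337 and 288 in PDGFRα-SCA1+ cells and 0.0629, 0 and 0 in DCs. Vwf, the carrier of coagulation factor VIII, measured 212, 185 and 159.6 in PDGFRα-SCA1+ cells, while no DC sample exceeded 0.0199. Vwf changed by 7.52 on the log2 scale (SE 0.52, adjusted p 1.0e-06, limma). The summed value of the 16 genes was 12361, 12665 and 10782 in PDGFRα-SCA1+ cells, 100.1, 61.9 and 90.7 in DCs and 653 to 1286 in PDGFRα+ cells.

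Genes of the sinusoidal endothelium and of larger vessels were both raised in the same samples. By staining of liver sections, the paper saw SCA1 protein on portal vein endothelium and not on sinusoids positive for VEGFR3, the product of Flt4. Of the 14 sinusoidal genes all 14 were higher in PDGFRα-SCA1+ cells (median log2 fold change 6.29), and 13 or 14 were when 1 sample was left out. Stab2, a scavenger receptor for hyaluronan, measured 303, 345 and 128 in PDGFRα-SCA1+ cells and 2.07, 3.26 and 0.785 in DCs. Clec4g, a sinusoidal lectin, stood at 2185, 2485 and 1638 in PDGFRα-SCA1+ cells and at 9.27, 0.984 and 11.1 in DCs (log2 fold change 8.37, SE 0.74, adjusted p 6.2e-06, limma). Gata4, the transcription factor of sinusoidal identity, measured 346, 405 and 222 in PDGFRα-SCA1+ cells, 0, 1.15 and 0.0353 in DCs and 80.9 to 158 in PDGFRα+ cells. For Stab2, Lyve1 and Oit3 the sample of mouse F was the lowest of the 3 PDGFRα-SCA1+ samples, at 128, 83.6 and 402, yet still above all DC samples. Lyve1, the hyaluronan receptor of sinusoids and lymphatics, had values of 221 and 162 in mice A and E, and Oit3 of 919 and 749.

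Of the 18 large-vessel genes tested 16 were higher and none was lower (median log2 fold change 6.00), and the list's Cytl1 did not pass the filter on low values. Selp, the P-selectin that captures leukocytes on venous endothelium, measured 3421, 5999 and 6216 in PDGFRα-SCA1+ cells and 4.02, 0.485 and 4.29 in DCs. It had the second largest rise of all genes named by the rule (log2 fold change 10.53, SE 0.81, adjusted p 2.1e-06, limma). Sele, which encodes E-selectin, rose likewise to 1176, 2015 and 2863 from 2.21, 2.69 and 0.0624 (log2 fold change 9.67, SE 0.67, adjusted p 1.0e-06, limma). Ackr1, the chemokine-binding receptor of venules, stood at 469, 487 and 453 in PDGFRα-SCA1+ cells and at 0, 0 and 0.392 in DCs. Gja4 and Gja5 encode the connexins of arterial endothelium. Gja4 measured 1257, 976 and 1748 in PDGFRα-SCA1+ cells and 0.216, 1.19 and 0.908 in DCs (log2 fold change 9.55, SE 0.37, adjusted p 2.7e-08, limma). Gja5 measured 106, 76.4 and 111 in PDGFRα-SCA1+ cells and under 1 in each DC sample. Venous, arterial and sinusoidal genes were thus high in each of the 3 PDGFRα-SCA1+ samples. The members that did not pass the threshold were Vcam1, at 885, 1432 and 1522 in PDGFRα-SCA1+ cells against 1031, 1017 and 939 in DCs, and Efnb2, at 48.3, 39.3 and 94.7 against 24.8, 25.7 and 29.7.

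Lymphatic genes did not move as a group. Of the 8 listed genes 6 were tested, of which 3 were higher and 2 were lower. The higher ones were Lyve1 and Flt4, which sinusoids share, and Nts, a neuropeptide, at 41.2, 139.9 and 192 in PDGFRα-SCA1+ cells against 0 in each DC sample. Prox1, the transcription factor of lymphatic identity that hepatic epithelium also carries, was lower, at 3.68, 14.1 and 5.31 in PDGFRα-SCA1+ cells and 93.6, 68.3 and 72.6 in DCs (log2 fold change -3.36, SE 0.78, adjusted p 0.0071, limma). With a pseudocount of 0.1 the adjusted p of Prox1 was 0.0622. Pdpn, the podoplanin of lymphatic endothelium, was at 4.72, 0.188 and 8.07 in PDGFRα-SCA1+ cells and 58.7, 38.5 and 68.6 in DCs, also lower (adjusted p 0.0022, limma).

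Transcription factors of endothelium followed the markers, with 16 of 22 higher, 1 lower and a median log2 fold change of 4.84, or 4.86 with factors listed at 0 in all samples of a population set to their bound. Sox18, Sox7 and Sox17 form the SOXF family of vascular factors. Sox18 measured 823, 809 and 1025 in PDGFRα-SCA1+ cells and 0 in each of the 3 DC samples, so that it was at least 2824-fold higher, against the floor of 3 reads per sample. Sox7 stood at 999.7, 1228 and 1032 in PDGFRα-SCA1+ cells against 0.722, 7.22 and 0.739 in DCs. Erg, the ETS factor of endothelium, measured 71.7, 80.3 and 83.8 in PDGFRα-SCA1+ cells and was at 0 in each DC sample and in each PDGFRα+ sample, which makes it at least 640-fold higher than in DCs. Tal1, at 24.3, 34.4 and 43.0 against 0 in all DC samples, was at least 349-fold higher. Fli1, another ETS factor, had values of 153, 142 and 198 against 2.08, 0.160 and 0.587. Klf2, the factor induced by blood flow, rose from 34.7, 40.7 and 31.1 in DCs to 1459.5, 1146 and 1225 (log2 fold change 5.13, SE 0.25, adjusted p 7.4e-08, limma). The member that fell was Ets2, an ETS factor of broad expression, at 182, 175 and 248 against 914, 702 and 698 (log2 fold change -1.94, SE 0.28, adjusted p 2.9e-04, limma). Hhex, which both endothelium and biliary epithelium use in development, was at 81.9, 99.7 and 127 in PDGFRα-SCA1+ cells and 333, 229.9 and 285 in DCs and did not pass the threshold (adjusted p 0.18, limma). It was lower when only the 6 samples compared were fitted (adjusted p 0.00738, limma) and without the PDGFRα+SCA1- sample of mouse E (adjusted p 0.0423, limma).

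On the ductal side all 25 genes of the ductal list were tested and all 25 were lower in PDGFRα-SCA1+ cells, with a median log2 fold change of -6.67 and 25 of 25 lower with any sample left out. Without Epcam, the gate antigen of DCs, 24 of 24 were lower (median -6.58). The median was -5.52 without the PDGFRα-SCA1+ sample of mouse A, -6.92 without that of mouse E and -6.43 without that of mouse F. Spp1, which encodes osteopontin, was the most abundant of them, at 68005, 61809.6 and 48091 in DCs and at 19.8, 3493 and 253 in PDGFRα-SCA1+ cells. Spp1 changed by -7.80 on the log2 scale (SE 1.35, adjusted p 0.001, limma). Sox9, the transcription factor of biliary identity, fell from 663, 366 and 377 to 2.63, 0.335 and 3.22, and at 30.5 to 78.9 it was higher in PDGFRα+ cells than in PDGFRα-SCA1+ cells. Cdh1, which encodes E-cadherin, was at 1742, 2111 and 2008 in DCs and at 0.165, 77.9 and 13.4 in PDGFRα-SCA1+ cells. Sctr, the secretin receptor through which ducts are stimulated to secrete, had values of 17.9, 7.42 and 14.6 in DCs and was at 0 in every PDGFRα-SCA1+ sample, at least 62.9-fold lower. Spp1 and Cdh1 share an order among the PDGFRα-SCA1+ samples, with mouse E the highest and mouse A the lowest, whereas Sox9 was lowest in mouse E.

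Ductal transcription factors were lower in 22 of 24 cases and higher in none (median log2 fold change -4.60, or -4.71 with factors at 0 set to their bound). Ehf and Elf3 are ETS factors of epithelium. Ehf had values of 354, 242 and 302 in DCs and 0.0306, 4.66 and 0.334 in PDGFRα-SCA1+ cells, and Elf3 was at 393, 354 and 386 in DCs but at 0, 24.2 and 0 in PDGFRα-SCA1+ cells. Of the ETS factors named here, Erg and Fli1 were thus higher and Ehf, Elf3 and Ets2 lower in PDGFRα-SCA1+ cells. The family as a whole was not counted. Grhl2, a grainyhead factor of epithelial junctions, stood at 21.7, 24.1 and 25.4 in DCs and at 0, 0.0309 and 0 in PDGFRα-SCA1+ cells. Ovol2, a repressor that guards epithelial identity, was at 11.6, 10.5 and 10.1 in DCs and at 0 in all PDGFRα-SCA1+ samples, at least 44.7-fold lower. Hnf4a, which hepatocytes also carry, fell from 311, 325 and 354 to 11.1, 23.8 and 2.82. Sox4 did not pass the threshold, at 51.9, 64.1 and 75.3 in PDGFRα-SCA1+ cells and 80.2, 85.2 and 123 in DCs.

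Junction genes split by the tissue they belong to. Of 26 epithelial junction genes 22 were lower and 1 was higher (median log2 fold change -5.58, or -5.65 at the bounds), while of 14 endothelial junction genes 13 were higher and none lower (median 6.95). Without the gate antigen genes Epcam and Pecam1 these were 21 lower of 25 epithelial genes (median -5.53) and 12 higher of 13 endothelial genes (median 5.97). Among the claudins, the strand proteins of tight junctions, Cldn4 was at 4864, 5963 and 4245 in DCs and at 3.41, 247 and 35.6 in PDGFRα-SCA1+ cells. Cldn8 was at 50.4, 57.2 and 47.1 in DCs and at 0 in the PDGFRα-SCA1+ samples, at least 239-fold lower. Cldn5, the claudin of endothelial tight junctions, went the other way, with 900.5, 850.0 and 820.3 in PDGFRα-SCA1+ cells and 9.74, 0 and 2.23 in DCs. The change was 8.04 on the log2 scale (SE 1.31, adjusted p 6.7e-04, limma). The only epithelial junction gene that was higher was Cldn1, at 10.4, 8.95 and 0.971 against 0 in all DC samples. Dsg2, a desmosomal cadherin, fell from 463, 530.2 and 356 to 0.0823, 2.37 and 1.65 (log2 fold change -7.71, SE 0.56, adjusted p 1.5e-06, limma). Jam2, a junctional adhesion molecule of venules, rose from 1.05, 1.95 and 1.71 to 1432, 1010.5 and 1168 (log2 fold change 8.87, SE 0.37, adjusted p 3.5e-08, limma).

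Keratins were lower in 8 of the 9 cases tested, with none higher (median log2 fold change -6.03, or -6.16 at the bounds). Krt18, the most abundant, stood at 16837, 23054 and 19192 in DCs and at 34.9, 464 and 115 in PDGFRα-SCA1+ cells. Krt23 had the largest fall of the keratins, from 1429, 1109 and 1207 to 0.476, 27.0 and 0 (log2 fold change -8.49, SE 1.21, adjusted p 2.4e-04, limma). Krt17 was at 0, 0 and 10.5 in PDGFRα-SCA1+ cells, so that only mouse F had it, and at 609.6, 596 and 266 in DCs.

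Genes of bile secretion and transport were lower in 10 of 17 cases, higher in 1 and at a median log2 fold change of -3.45. Car2, the carbonic anhydrase that supplies bicarbonate, was at 3236, 4352 and 3139.8 in DCs and at 13.0, 249 and 39.4 in PDGFRα-SCA1+ cells. Slc10a2, the apical bile acid transporter, was at 30.1, 21.0 and 29.8 in DCs and at 0.0449, 0 and 0 in PDGFRα-SCA1+ cells. Cftr, the chloride channel of the duct, stood at 50.8, 34.3 and 55.5 in DCs and at 0, 0 and 5.06 in PDGFRα-SCA1+ cells. The gene that rose was Aqp1, a water channel known from both endothelium and bile ducts, with 5938, 4298 and 5577 in PDGFRα-SCA1+ cells and 6.85, 9.82 and 22.8 in DCs. Aqp1 changed by 8.69 on the log2 scale (SE 0.74, adjusted p 4.6e-06, limma). Of 12 genes of cilia and polycystic disease 4 were lower, among them Pkhd1, at 104, 114 and 82.3 in DCs and 0.0106, 3.72 and 0.0119 in PDGFRα-SCA1+ cells, and Bicc1, at 129, 79.4 and 90.1 against 0.451, 0.0741 and 0.106. None of the 12 was higher, and the general cilium gene Ift88 and the polycystin genes Pkd1 and Pkd2 did not pass the threshold. Pkd2 passed it as lower without the PDGFRα-SCA1+ sample of mouse A (adjusted p 0.0296, limma), without the PDGFRα+SCA1- sample of mouse E (0.0395) or of mouse F (0.0372), and after quantile normalization (0.0476).

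**Figure D2:**
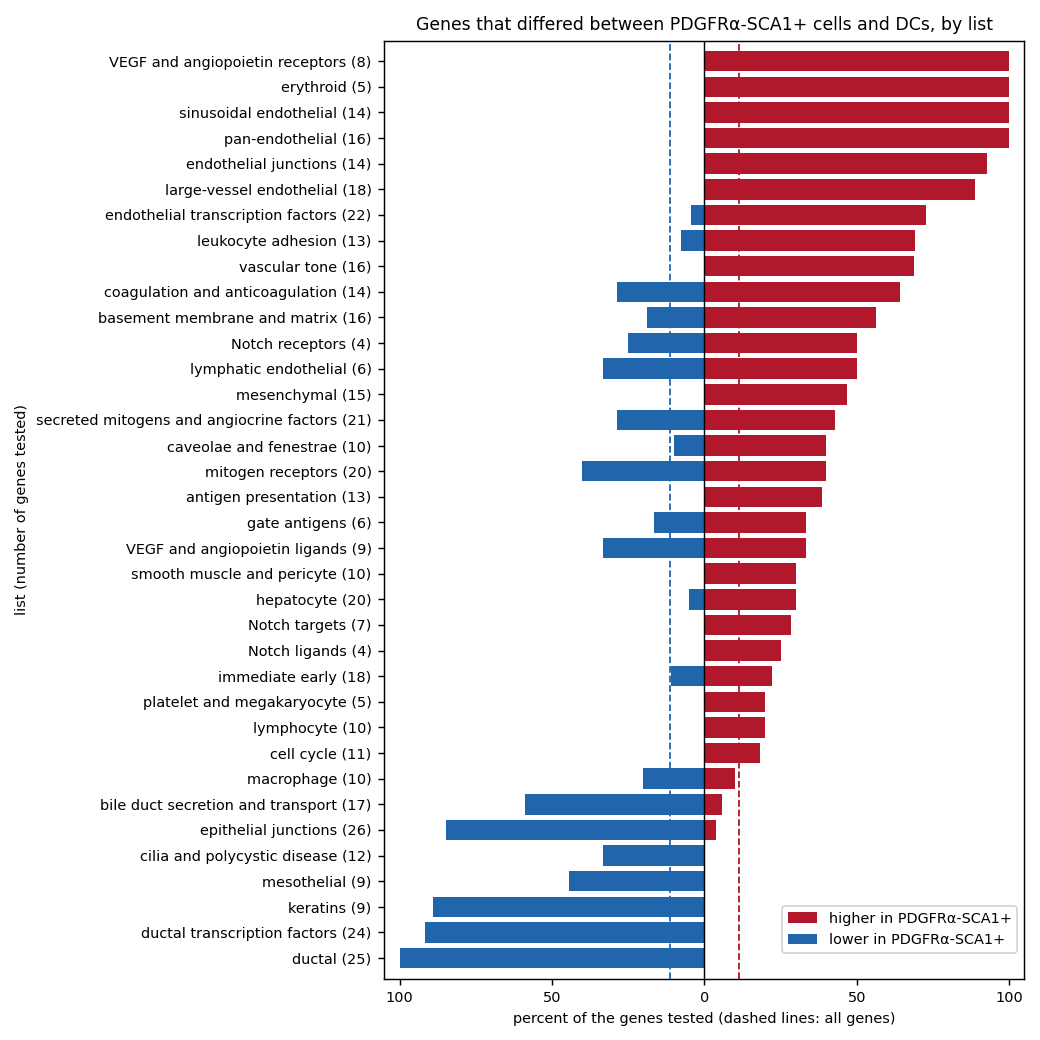
For each list of genes, the percent of the tested members that were higher (to the right) or lower (to the left) in PDGFRα-SCA1+ cells than in DCs at an adjusted p under 0.05 (limma), with the number tested in parentheses and the shares over all genes, 11.5% and 11.3%, as dashed lines. Endothelial lists reach to the right and ductal lists to the left, for example 16 of 16 pan-endothelial genes higher and 25 of 25 ductal genes lower.

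Receptors and ligands of vascular growth were compared by role. VEGF and angiopoietin receptors were higher in 8 of 8 cases (median log2 fold change 7.12). Flt1, the VEGF receptor VEGFR1, measured 263, 290.1 and 277 in PDGFRα-SCA1+ cells and 0.316, 3.52 and 1.47 in DCs. Tek, the angiopoietin receptor TIE2, stood at 664, 774 and 797 against 0.122, 3.0 and 2.62, and its partner Tie1, whose promoter is printed above, at 435, 335 and 361 against 0.0622, 0.281 and 2.84. The ligands went both ways, with 3 of 9 higher and 3 lower. Vegfa, the main ligand of Kdr, was lower in PDGFRα-SCA1+ cells, at 11.8, 4.14 and 7.85 against 35.7, 31.7 and 22.6 in DCs (log2 fold change -1.87, SE 0.45, adjusted p 0.0095, limma). Angpt1, the agonist of Tek, was at 38.1, 22.3 and 19.7 in DCs and at 0 in all PDGFRα-SCA1+ samples, at least 274-fold lower. Vegfc, which binds Flt4 and Kdr, was higher, at 133, 125 and 229 against 2.43, 8.16 and 0.176. Pgf, a ligand of Flt1, was also higher, at 111, 148 and 184 against 2.91, 0 and 2.24.

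In the Notch pathway, Dll4, the ligand of arterial and sprouting endothelium, measured 245, 303 and 352 in PDGFRα-SCA1+ cells and 0, 0.0968 and 0.973 in DCs (log2 fold change 7.85, SE 0.97, adjusted p 8.3e-05, limma). The ligand Jag1, whose deficiency causes bile duct paucity, stood at 137, 64.3 and 101 in PDGFRα-SCA1+ cells and 45.5, 30.8 and 39.3 in DCs and did not pass the threshold (adjusted p 0.22, limma), although it did when only the 6 samples compared were fitted (adjusted p 0.0322) or the PDGFRα+SCA1- sample of mouse E was left out (adjusted p 0.0291). The receptors were divided between the populations. Notch1 was higher, at 137, 109.7 and 156 against 22, 18.4 and 16.8, and Notch4 was higher too, at 19.0, 17.4 and 22.7 against 0.740, 0 and 0.0231. Notch2, the receptor of biliary development, was lower, at 1.96, 3.38 and 5.16 against 53.3, 43.0 and 26.3 (log2 fold change -3.22, SE 0.45, adjusted p 2.2e-04, limma). Of 7 Notch targets tested 2 were higher, Hey1 at 68.2, 75 and 86.1 against 0, 0.527 and 0.0521 and Nrarp at 23.8, 21.6 and 14.1 against 1.79, 2.35 and 2.08, while Hes1 stood at 439.9, 394 and 726 against 357, 324 and 416 and did not pass the threshold.

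Of 21 secreted mitogens and angiocrine factors 9 were higher and 6 lower, and the number lower ran from 3, without the DC sample of mouse A, to 8 when 1 sample was left out. Rspo3, an enhancer of Wnt signals that central-vein endothelium is known to secrete, measured 1201, 1099 and 814 in PDGFRα-SCA1+ cells, 1.34, 0.179 and 1.44 in DCs and 16.1 to 159 in PDGFRα+ cells. Wnt2 stood at 1106, 1053 and 400.4 in PDGFRα-SCA1+ cells and at 0.165, 1.96 and 0.134 in DCs, and Wnt9b at 141, 122 and 85.8 against 0.102, 1.90 and 0. Both Wnt ligands were lowest in mouse F among the PDGFRα-SCA1+ samples and did not overlap with DCs in any mouse, with log2 fold changes of 8.94 for Wnt2 (SE 0.95, adjusted p 2.6e-05, limma) and 6.28 for Wnt9b (SE 0.53, adjusted p 4.7e-06, limma). Bmp2, by which sinusoidal endothelium controls hepcidin in hepatocytes, had values of 725, 1051 and 754 against 5.95, 10.4 and 20.1. Tgfb1 was higher at 66.5, 74.5 and 100 against 5.60, 9.68 and 11.7. Il6 was higher than in DCs, at 56.5, 85.8 and 79.8 against 4.65, 6.97 and 3.82, but lay below its 862 to 6095 in PDGFRα+ cells, and Cxcl12, at 41.2, 58.4 and 40.4 against 13.2, 7.86 and 5.69, lay below 642 to 2395. Lif, a cytokine of the interleukin-6 family, was lower, at 7.17, 3.82 and 17.0 against 585, 352 and 594 in DCs (log2 fold change -5.80, SE 0.55, adjusted p 1.1e-05, limma).

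Of 20 mitogen receptors tested 8 were higher and 8 lower. The lower ones included Met, Egfr, Erbb3, Lgr4 and the FGF receptors. Met, the HGF receptor, was at 2.51, 1.10 and 3.01 in PDGFRα-SCA1+ cells and 42.8, 46.8 and 62.2 in DCs, and Egfr at 2.0, 0.321 and 0.0135 against 30.4, 35.9 and 25.4. Erbb3, the neuregulin receptor, was at 37.5, 48.9 and 57.2 in DCs and at 0 in all PDGFRα-SCA1+ samples, at least 567-fold lower. Lgr4, a receptor of the R-spondins, was at 2.35, 0.292 and 9.05 against 40.4, 29.2 and 27.0. All 4 FGF receptors, Fgfr1 to Fgfr4, were lower, for example Fgfr1 at 23.5, 26.5 and 22.1 against 134, 156 and 125 and Fgfr3 at 39.0, 23.4 and 21.7 against 275, 184 and 213. Receptors that were higher included Kit, the stem cell factor receptor, at 150.0, 138 and 82.5 against 0.0339, 0.648 and 1.66, and Acvrl1, the endothelial BMP9 receptor ALK1, at 133, 61.8 and 164 against 5.95, 1.39 and 4.73. Kitl, which encodes stem cell factor, was itself higher, at 202, 156 and 221 against 48.3, 59.4 and 52.3 (log2 fold change 1.83, SE 0.35, adjusted p 0.0021, limma).

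**Figure D3:**
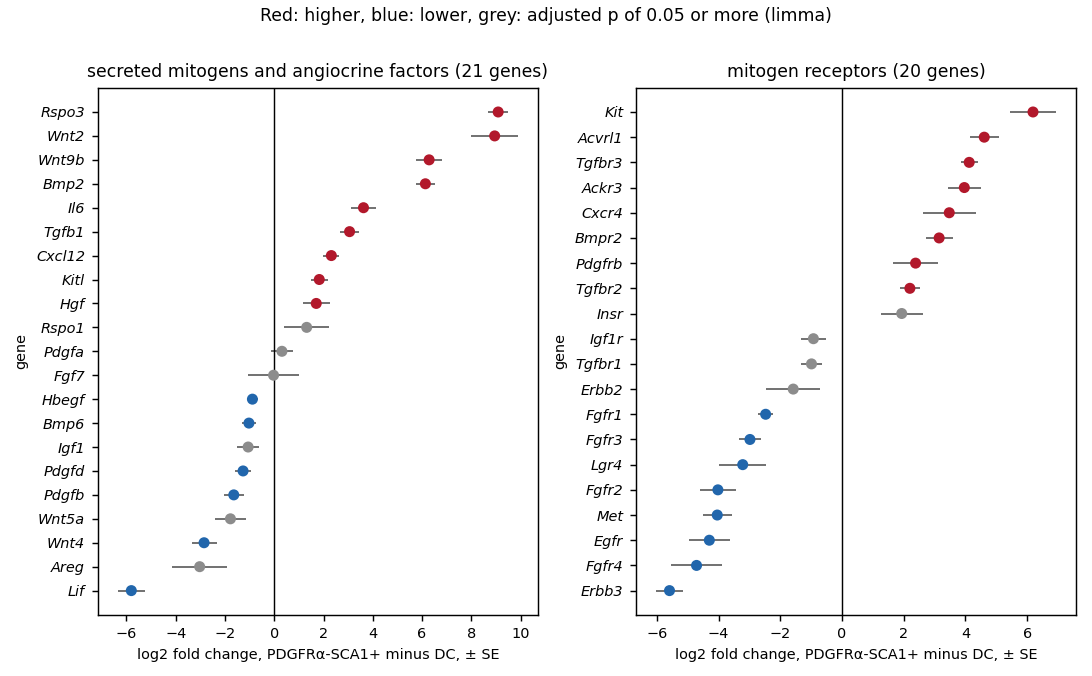
Log2 fold changes of PDGFRα-SCA1+ cells over DCs with their SE (bars, limma) for the tested secreted mitogens and angiocrine factors and mitogen receptors, in red where higher, blue where lower and grey where the threshold was not passed. Rspo3 (9.09) and Wnt2 (8.94) lie furthest to the right and Lif (-5.80) furthest to the left among the factors, and Kit (6.19) and Erbb3 (-5.59) at the ends of the receptors.

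Genes of coagulation and vascular tone were mostly higher in PDGFRα-SCA1+ cells. Of 14 coagulation genes 9 were higher and 4 lower (median log2 fold change 3.61). Thbd, the anticoagulant thrombomodulin, measured 942, 716 and 857 in PDGFRα-SCA1+ cells and 0.129, 2.89 and 0.170 in DCs, and Procr, the protein C receptor, 682, 797 and 1402 against 2.60, 5.70 and 8.48. F8, coagulation factor VIII, which liver endothelium makes, stood at 335, 193 and 309.8 against 0.396, 2.06 and 0. F3, the tissue factor that starts coagulation, went the other way, at 5.88, 38.2 and 37.8 in PDGFRα-SCA1+ cells and 4033, 4351 and 4228 in DCs (log2 fold change -7.58, SE 0.57, adjusted p 1.7e-06, limma). The initiator F3 was thus high in DCs and the anticoagulant Thbd and Procr in PDGFRα-SCA1+ cells. The procoagulant F8 and Vwf were high in PDGFRα-SCA1+ cells as well. Of 16 genes of vascular tone 11 were higher and none lower (median 4.79, or 6.07 at the bounds). Nos3, the endothelial nitric oxide synthase, had values of 129.9, 149 and 204 against 0.740, 0 and 0.260, and Ednrb, the endothelin receptor of endothelium, 533, 311 and 633 against 0.651, 0.0999 and 0.0379. Calcrl and Ramp2, which together form the adrenomedullin receptor, were at 536, 549 and 557 and at 453, 367 and 317 in PDGFRα-SCA1+ cells and did not exceed 2.68 and 2.81 in DCs.

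Plvap, the protein of the diaphragms that span endothelial fenestrae and caveolae, had the largest rise of the genes named by the rule, from 3.85, 0.686 and 1.52 in DCs to 4874, 3973 and 3618 (log2 fold change 10.55, SE 0.57, adjusted p 2.1e-07, limma). Plvap was also present in PDGFRα+ cells, at 246 to 1911. Of the list of 10 caveolar and fenestral genes, 4 were higher and 1 was lower, and the caveolin Cav1 was at 187, 333 and 224 in PDGFRα-SCA1+ cells and 139, 158 and 197 in DCs (adjusted p 0.42, limma). Of 16 genes of basement membrane and matrix 9 were higher and 3 lower (median 1.14, or 2.02 at the bounds). Nid1, a linker of basement membranes, had values of 235, 191 and 126 against 0.123, 0.169 and 1.88, and Col4a1 of 178, 200.2 and 143 against 22.9, 36.9 and 23.3. Fn1, fibronectin, was lower, at 9.54, 9.54 and 2.07 against 111, 104 and 84.4.

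The 15 largest rises and 15 largest falls without overlap add genes from outside the lists. Among the rises were Gpihbp1, which anchors lipoprotein lipase to capillaries, at 1157, 975 and 547 against 0.730, 0.20 and 0, and Fabp4, a fatty acid-binding protein of capillary endothelium, at 934, 795 and 676 against 0.716, 0.678 and 0.180. Ehd3, an endocytic ATPase, stood at 2361, 2779 and 1563 against 1.81, 5.07 and 4.82, and Ch25h, which makes 25-hydroxycholesterol, at 555, 571 and 701 against 0.234, 0.118 and 0.204. Serpina3g, a serine protease inhibitor, completes the rises outside the lists, at 1329, 1308 and 1094 against 0.0808, 0.863 and 5.04. Ankrd1, a target of YAP, had the largest fall, from 8000.0, 8026 and 7587 in DCs to 1.07, 0.724 and 40.4 (log2 fold change -10.54, SE 1.10, adjusted p 2.1e-05, limma). Spint1, an inhibitor of epithelial proteases, stood at 434, 546 and 441 in DCs and at 0.0486, 0.0553 and 0 in PDGFRα-SCA1+ cells. Cxcl5, a chemokine for neutrophils, was at 5679.6, 4448 and 3715 in DCs and at 1.27, 223 and 13.3 in PDGFRα-SCA1+ cells. Pard6b, a polarity protein, was at 232, 186 and 167 in DCs and did not exceed 0.150 in PDGFRα-SCA1+ cells. Plet1, Tmem171, Sftpd and Anxa13, from 284 to 1441 in DCs, ran from 0 to 7.99 in PDGFRα-SCA1+ cells.

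How much ductal RNA the PDGFRα-SCA1+ samples held was read from genes called duct-restricted, chosen without the PDGFRα-SCA1+ samples. These were 68 of the 2760 genes that stood at 50 or more in each DC sample. Each was under 1% of its DC mean in each of the 6 PDGFRα+ samples. The name rests on low values in PDGFRα+ cells only. Members were not screened for RNA of endothelium or leukocytes, and they include Pdgfb and Cd14, which is also on the macrophage list. Each gene's value was divided by its mean in DCs. The median over the 68 genes was 0.0214% in the PDGFRα-SCA1+ sample of mouse A, 2.90% in that of mouse E and 0.526% in that of mouse F, 136-fold apart between mice E and A and 5.5-fold between mice E and F. The lower and upper quartiles were 0 and 0.336% in mouse A, 0.165 and 8.01% in mouse E and 0 and 1.94% in mouse F. Genes listed at 0 numbered 23 in mouse A, 9 in mouse E and 18 in mouse F. Further genes in mouse A, such as Krt7 and Ehf, rested on 1 read. The median of mouse A and its 136-fold distance from mouse E are therefore limited by depth. The value in mouse E exceeded that in mouse A for 51 of 68 genes and that in mouse F for 51 of 68, and mouse F exceeded mouse A for 39. Genes of 1 sample share a library, so no test was made on these shares.

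**Figure D4:**
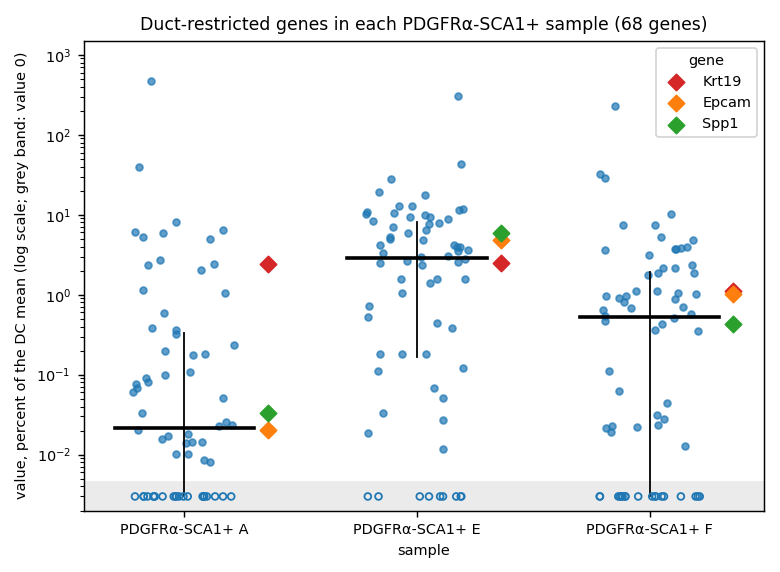
The 68 duct-restricted genes in the PDGFRα-SCA1+ samples of mice A, E and F, each as a percent of its mean in DCs on a log10 axis, with genes at 0 as open circles in the grey band, the median as a thick bar, the quartiles as a thin line and Krt19, Epcam and Spp1 as diamonds. The medians are 0.0214% in mouse A, 2.90% in mouse E and 0.526% in mouse F. Epcam is a gate antigen.

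Several abundant ductal genes showed the same order of mice. Epcam, a gate antigen, was at 0.0201% of its DC mean in mouse A, 4.88% in mouse E and 1.02% in mouse F. Spp1 followed at 0.0333%, 5.89% and 0.427%, Krt8 at 0.082%, 2.97% and 1.05%, Krt18 at 0.177%, 2.36% and 0.582%, and Cldn4 at 0.0678%, 4.91% and 0.708%. In absolute terms the 25 genes of the ductal list summed to 234 in mouse A, 5384 in mouse E and 796 in mouse F, against 121349, 125419.7 and 104893 in DCs and 148 to 608 in the PDGFRα+ samples. The sum of mouse A thus lay within the range of the mesenchymal samples of the same livers, and those of mice E and F above it. The sums are made up of different genes. Spp1 alone gave 3493 of that of mouse E. Krt19, at 56.1 in mouse A, lay above its 0.0919 to 15.4 in PDGFRα+ cells.

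The genes did not keep a common ratio, and several departed from this order. Krt19 was at 2.41%, 2.49% and 1.11% of its DC mean, as high in mouse A as in mouse E. Of the ductal list outside the 68, Cldn3 was at 2.29%, 3.95% and 1.31% and Anxa4 at 7.03%, 7.50% and 4.34%, both lowest in mouse F. Cd24a, also outside them, was at 2.96%, 3.36% and 6.02%, highest in mouse F. Ccl20, a chemokine for lymphocytes and dendritic cells, was at 8.18%, 0.122% and 3.80%, highest in mouse A. Ductal genes could be at or near 0 in mouse E, where Spint1 was at 0.0117%, Pard6b at 0.0274% and Kif12 at 0.069%. Others were well above the median in the same sample, and 12 of the 68 were at 10% or more in mouse E, against 2 in mouse A and 4 in mouse F. A single gene of the 68, named here after its values were seen, exceeded its DC mean, 8430408G22Rik, at 471%, 303% and 228%. Genes picked this way are high in DCs by choice, so a test of them against DCs is no finding. Pdgfb, the growth factor by which endothelium recruits pericytes, was at 39.1%, 27.7% and 28.6%, and the adjusted p of its fall was 0.0501 to 0.0573 (limma) when any one DC sample was left out. Under the stricter limit of 0.2% in PDGFRα+ cells, which left 34 genes, the medians were 0.0102% in mouse A, 2.07% in mouse E and 0.0469% in mouse F, so that the distance of mouse F from mouse A shrank while mouse E stayed apart.

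Beside the medians of the ductal list given above, that of the keratins moved from -6.03 to -6.86 without the PDGFRα-SCA1+ sample of mouse E, to -5.81 without that of mouse A and to -5.83 without that of mouse F, with 25 ductal genes and 8 keratins lower in each of these fits. The ductal transcription factors counted lower numbered 22 with all samples and 18 to 22 with 1 sample left out, namely 19 without the PDGFRα-SCA1+ sample of mouse E or mouse F and 18 without the DC sample of mouse F.

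Genes of other cell types also differed between the PDGFRα-SCA1+ samples, and their part in the results above was not tested. The 11 mesothelial genes summed to 604, 357 and 370 in PDGFRα-SCA1+ cells, 2585, 2500 and 2985 in DCs and 16.2 to 271 in PDGFRα+ cells. Of 9 tested 4 were lower than in DCs, of which 2, Krt19 and Krt7, are the keratins of the ductal list and the others were Cdh3 and Msln. Msln did not pass the threshold without any one DC sample or without the PDGFRα-SCA1+ sample of mouse E or mouse F (adjusted p 0.0661 to 0.121, limma). None was higher by limma with all samples (1 at an unadjusted p under 0.05), and 1, Gpm6a, was without the PDGFRα+SCA1- sample of mouse F or with only the 6 samples compared. Gpm6a, a membrane glycoprotein, made up most of the sum in PDGFRα-SCA1+ cells, at 418, 293 and 343 against 118, 80.4 and 76.2 in DCs (adjusted p 0.15, limma). In DCs most of the sum was the ductal keratin Krt19, at 2249.8, 2099.6 and 2639. Upk3b, a uroplakin of the mesothelium that covers the liver, was at 48.3 in mouse A and at 0 in mice E and F, Upk1b at 41.1, 0 and 0, Lrrn4 at 21.2, 0 and 0, Msln at 13.8, 0 and 0 and Muc16 at 1.06, 0 and 0. These 5 genes were thus seen in mouse A only among the PDGFRα-SCA1+ samples, whereas Gpm6a was present in all 3 and Krt7 was highest in mouse E (0.0224, 6.54 and 0.801). In DCs Msln was at 29.7, 84.3 and 45.7 and Upk1b at 6.58, 34.1 and 11.8. The defining genes Upk3b, Lrrn4 and Msln were at 0 in the PDGFRα-SCA1+ samples of mice E and F.

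Lymphocyte genes were concentrated in mouse F. The 12 listed genes summed to 94.5, 93.7 and 906 in the PDGFRα-SCA1+ samples and to 21.0, 6.79 and 8.17 in DCs. Cd3d, a chain of the T cell receptor complex, was at 0, 0.759 and 64.1 in PDGFRα-SCA1+ cells, Cd2 at 0, 18.8 and 145, Cd4 at 0.0334, 0.152 and 45.6 and Nkg7, of cytotoxic cells, at 0, 0 and 49.1. With the mouse as a block Cd2 passed the threshold (adjusted p 0.0436, limma, against 0.059 without), as it did without the PDGFRα-SCA1+ sample of mouse A (7.9e-04). Of the 10 tested 2 were higher than in DCs, Cd3e at 13.3, 17.6 and 40.9 against 0, 0.0989 and 0.150 and Cd79a at 33.2, 44.4 and 135 against 5.99, 0 and 0, and 4 were without the PDGFRα-SCA1+ sample of mouse A or of mouse E. Macrophage genes did not share an order of mice. The 14 listed summed to 596, 820 and 298 in PDGFRα-SCA1+ cells, highest in mouse E, where Cd14 made up 561. The sums were 5642, 8070 and 5767 in DCs, mostly Cd14, and 47.9 to 256 in PDGFRα+ cells. Of the 10 tested 1 was higher and 2 were lower. Lyz2, the lysozyme of myeloid cells, was the higher one, at 165, 243 and 21.1 against 0, 0.144 and 32.3 (adjusted p 0.037, limma). It did not pass with the mouse as a block (adjusted p 0.0536, limma), and its adjusted p was 0.0077 to 0.148 (limma) with 1 sample left out. Cd68, a lysosomal protein of macrophages, was highest in mouse F, at 20.5, 16.0 and 52.7 (adjusted p 0.90, limma). C1qb, a complement gene of macrophages, stood at 156, 0 and 32.0 in PDGFRα-SCA1+ cells, Cd5l at 38.6, 0 and 32.0 and Clec4f, the lectin of Kupffer cells, at 30.2, 0 and 7.99, none of them past the threshold with all samples. Mouse E, with the most ductal RNA, had these 3 genes at 0, and without its PDGFRα-SCA1+ sample C1qb (adjusted p 0.00658, limma) and Cd5l (adjusted p 0.00833, limma) were higher than in DCs. Cd14, which DCs carried at 5586, 8001 and 5642, was lower in PDGFRα-SCA1+ cells, at 131, 561 and 152, and so was Csf1r, the receptor of macrophage colony-stimulating factor, at 13.1, 0.44 and 0 against 46.9, 32.5 and 34.9 (adjusted p 0.032, and 0.00777 to 0.114 with 1 sample left out, limma).

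Hepatocyte genes summed over 20 genes to 5712, 10581 and 3370 in PDGFRα-SCA1+ cells (highest in mouse E) and to 6887, 7923 and 7244 in DCs, and to 1179 to 3910 in PDGFRα+ cells. Alb, which encodes albumin, was at 1779, 4758 and 1508 against 4807, 6154 and 5219 and did not pass the threshold (adjusted p 0.29, limma). Of the 20 genes 6 were higher and 1 was lower. The number higher was 2 without the DC sample of mouse A, 3 without that of mouse E and 3 without the PDGFRα-SCA1+ sample of mouse E. Erythroid genes summed to 8516, 7295 and 3790 against 1517, 1833 and 546, and 5 of 5 tested were higher, but 2 when the DC sample of mouse F or the PDGFRα-SCA1+ sample of mouse A or mouse E was left out.

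Against their label as mesenchymal, PDGFRα-SCA1+ cells held little of the RNA of PDGFRα+ mesenchyme. The 15 mesenchymal genes summed to 545, 377 and 548 in PDGFRα-SCA1+ cells, 96.5, 65.7 and 66.7 in DCs and 34729 to 59078 in PDGFRα+ cells. Dcn, the matrix proteoglycan decorin, was at 391, 227 and 423 in PDGFRα-SCA1+ cells, higher than the 61.8, 29.4 and 36.8 of DCs (log2 fold change 3.01, SE 0.35, adjusted p 4.7e-05, limma) and far below the 20423 to 43598 of PDGFRα+ cells. Col1a1 was at 34.2, 3.82 and 5.90 and Col1a2 at 7.35, 4.55 and 4.64, against at least 1160.4 and 631 in PDGFRα+ cells. Of the 15 genes 7 were higher than in DCs, and 3 were with only the 6 samples compared. Eln, which encodes elastin, was one of them, at 21.9, 37.4 and 29.4 against 0.056, 0.115 and 0.526.

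**Figure D5:**
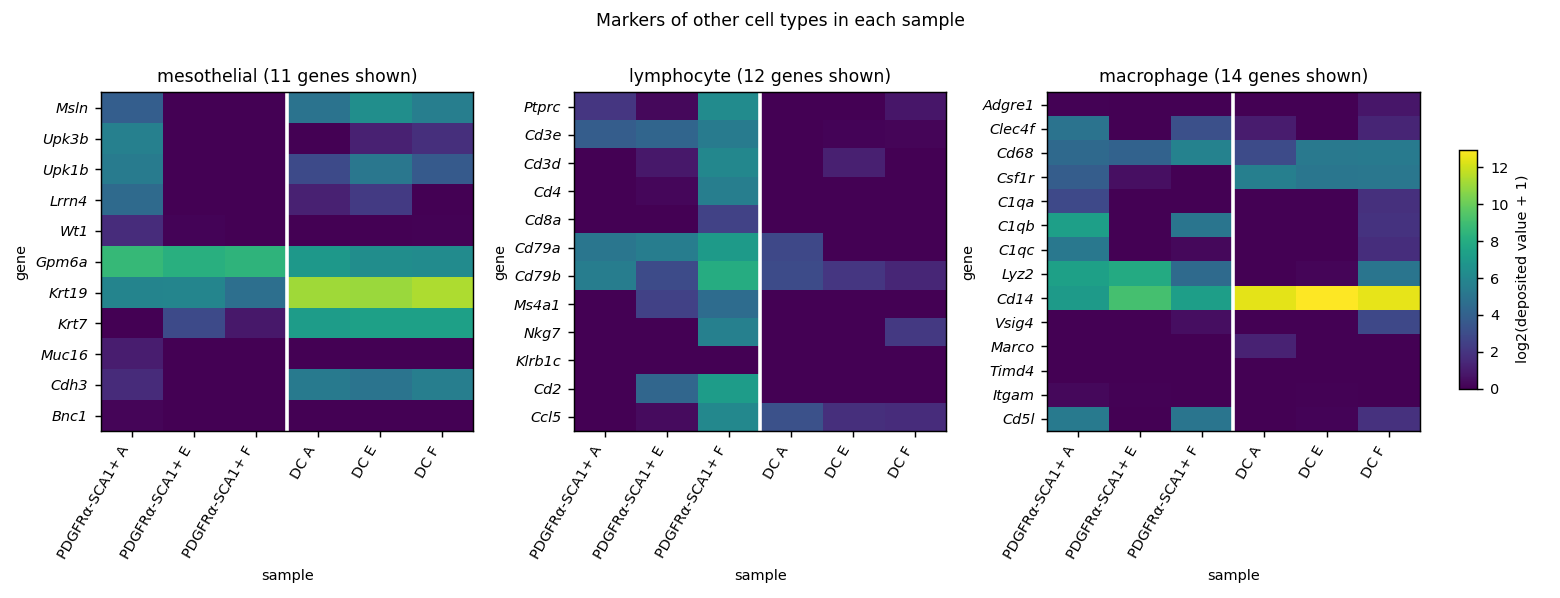
Heat maps of log2(deposited value + 1) for mesothelial, lymphocyte and macrophage genes (rows) in the PDGFRα-SCA1+ and DC samples of mice A, E and F (columns), with 1 colour scale. Among the PDGFRα-SCA1+ samples Upk3b and Lrrn4 are seen in mouse A only (48.3 and 21.2), Cd3d reaches 64.1 in mouse F, and C1qb is at 156 in mouse A and at 0 in mouse E.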

How the data were processed

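Mice A, E and F each gave DCs, PDGFRα-SCA1+ cells and both PDGFRα+ populations, whose RNA was read by Smart-seq2 in single-read mode. According to the methods and the submitters' processing notes, the authors aligned reads to GRCm38 with STAR 2.5.0a and counted them on exons with featureCounts. The deposited values, a normalised signal named TPM by the authors, are not TPM but 0.722 to 1.39 times TPM, since the divisor changes from gene to gene along the table. Within each mouse, DCs and PDGFRα-SCA1+ cells shared the divisor at every gene. Between mice the divisor differed, so values of a gene in different mice are not on exactly the same scale. Orders of mice that rest on close values, and sums over genes, are limited by this. Of 46997 low values 92.9% corresponded to whole reads (tolerance 0.02, up to 20 reads), from which the depth was 19.6 M to 25.7 M reads. A floor of 3 reads per sample bounds a value of 0, and floors cover counting error only. The table's 4 columns of population means were not used.

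Values were fitted as log2(value + 1) in R 4.3.3 by limma 3.58.1, with a mean for every population over the 12 samples and eBayes with a trend, for genes at 1 or more in at least 3 samples. The methods name no test for these data. The fit was tested on simulated data. Fold changes on this scale understate those of low genes. Tables were handled with Python 3.11.15, pandas 2.3.3 and numpy 2.4.6. The letters A, E and F name the same animals in each population, and residuals of DC and PDGFRα-SCA1+ samples correlated across genes at 0.0632, 0.027 and 0.097 within mice and at -0.0671 to 0.00591 between mice. Besides these animals nothing marks a batch. The genes named are those of 36 lists and the 15 largest rises and 15 largest falls among called genes without overlap, without predicted genes (symbols of Gm and a number, or ending in Rik). Members and lists were chosen with earlier results of these data known. Alternatives were a pseudocount of 0.1, no filter or a minimum of 5, quantile normalization, TPM rebuilt with each sample's own total, eBayes without trend, the 6 samples alone, the mouse as a block, a 2-fold minimum and each sample left out. Samples in culture were not used here. One gene of the lists, counted with them, and 1 of the motifs planned are not reported here.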

Additional observations from a re-analysis of the deposited data

How the results depend on the processing

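The number of genes that differed, 3875 (1952 higher and 1923 lower), ran from 3534 with a minimum of 5 to 4355 with only the 6 samples compared, was 3799 with the mouse as a block, and stayed within 1.5 times of 3875 under each alternative. It was 3561 with a pseudocount of 0.1, 3576 without a filter, 3694 without a trend, 3762 with at least a 2-fold change, 4073 as rebuilt TPM (2181 higher and 1892 lower) and 4166 after quantile normalization (1973 higher and 2193 lower). With 1 sample left out it was 3029 to 4519, with 1544 to 2233 higher and 1458 to 2286 lower. Of all list genes 269 differed, 245 to 280 with 1 sample left out, and of the genes named in the text 135, 129 to 138 with 1 sample left out. The pan-endothelial count was 15 or 16 and the ductal count 25 with 1 sample left out. With only the 6 samples compared the ductal count was 24 of 25. The pan-endothelial count was 15 of 16 without a trend, without a filter and with a pseudocount of 0.1. Rebuilt TPM shifted log2 ratios by 0.248 in mouse A, 0.192 in mouse E and -0.151 in mouse F.

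Of the 135 named genes that passed, 128 passed under every alternative in which they were tested and none reversed, while Cdk1, Csf1r, Ecscr, Lyz2, Msln, Pdgfb and Prox1 did not under at least 1. The mouse as a block changed the call of 3 named genes, Cd2, Cdk1 and Lyz2, and of no other. Medians of lists with low genes were larger with a pseudocount of 0.1, as for the ductal transcription factors (-6.92, against -4.60). List counts that moved by over 1.5 times outside the samples left out were the mesenchymal genes higher (7, and 3 with only the 6 samples compared), antigen presentation (5, and 3 with only the 6 samples), erythroid genes (5, and 3 without a filter), immediate early genes (4 higher, and 8 as rebuilt TPM), and counts of 2 or fewer. The medians of duct-restricted genes were 0.0176 to 0.0225% in mouse A, 2.83 to 2.97% in mouse E and 0.490 to 0.582% in mouse F with 1 DC sample left out, an alternative chosen after seeing the data. Against the DC sample of the same mouse (replicate block) they were 0.0205, 2.86 and 0.545%. As rebuilt TPM they were 0.0199, 3.26 and 0.601%. Values of a few reads, such as most ductal genes in mouse A, are limited by depth.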

Other observations

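Antigen presentation genes outside the comparisons above were higher in 5 of 13 cases in PDGFRα-SCA1+ cells (3 with only the 6 samples compared) and lower in none. B2m, the light chain of class I molecules, measured 19272, 15925 and 23078 in PDGFRα-SCA1+ cells, by mouse A, E and F, and 6827, 4659 and 4354 in DCs (log2 fold change 1.89, SE 0.25, adjusted p 1.5e-04, limma). Tap1, which loads peptides onto class I, stood at 115, 80.5 and 201 against 17.1, 23.9 and 23.4, and Nlrc5, the activator of class I genes, at 42.7, 65.5 and 69.9 against 9.49, 10.2 and 13.2. The class II invariant chain Cd74 was at 465, 152 and 3486 in PDGFRα-SCA1+ cells, highest in mouse F, the sample in which the summed lymphocyte genes were 906, against 284, 205 and 519 in DCs (adjusted p 0.67, limma).

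Of 18 immediate early and stress genes 4 were higher, or 8 as TPM rebuilt from the deposited values, and 2 lower. Hspa1a, an inducible heat shock protein, was higher, at 1329, 1637 and 1279.6 against 247, 275 and 138 (log2 fold change 2.73, SE 0.30, adjusted p 3.2e-05, limma), and Fosl1, a component of AP-1, was lower, at 67.5, 91.5 and 171 against 2043, 1910.2 and 2262 (log2 fold change -4.33, SE 0.29, adjusted p 8.7e-07, limma). Fos was at 4507, 5092 and 4025 in PDGFRα-SCA1+ cells and 3567, 3626 and 2495 in DCs and did not pass the threshold (adjusted p 0.10, limma), but did as TPM rebuilt from the deposited values (adjusted p 0.0451, limma). Of 11 cell cycle genes tested 2 were higher and none lower (1 at an unadjusted p under 0.05), with a median log2 fold change of 0.40 and 9 not past the threshold. Mki67, which marks cycling cells, stood at 5.63, 6.19 and 8.39 against 0.217, 2.62 and 0.270 (log2 fold change 2.11, SE 0.48, adjusted p 0.0065, limma). Cdk1, the kinase of mitotic entry, stood at 7.09, 4.28 and 4.04 against 0, 0.04 and 1.01 (adjusted p 0.049, limma), and the number higher was 1 with the mouse as a block and without any one of the 6 samples compared or of the PDGFRα+SCA1+ samples. Birc5, a regulator of cell division, had the lowest change of the list, at 1.83, 0 and 0.65 against 3.99, 2.88 and 3.58 (adjusted p 0.13, limma).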
